A study of Mus musculus with 17 samples.

Results

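Dendritic cells take up tumor antigen and present it to T cells, and they are divided into subsets with separate tasks. Type 1 conventional dendritic cells (cDC1) cross-present antigen of dead cells to CD8 T cells and depend on the transcription factors BATF3 and IRF8. Type 2 conventional dendritic cells (cDC2) mainly prime CD4 T cells, plasmacytoid dendritic cells are known for type I interferon production, and mature dendritic cells of any origin secrete chemokines that attract regulatory and type 2 helper T cells. Here, 10 genes that mark these subsets were followed in AB12 tumors. They are *Xcr1*, *Clec9a*, *Batf3* and *Irf8* of cDC1, *Flt3* and *Zbtb46* shared by conventional dendritic cells, *Cd209a* of cDC2 and monocyte-derived cells, *Ccl17* and *Ccl22* of mature dendritic cells, and *Siglech* of plasmacytoid dendritic cells. The genes were chosen by name, with earlier results of these data known, and all 10 were found among the 55450 genes of the count table.

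AB12 is a mesothelioma cell line of mouse origin, and it was injected into the peritoneum of female BALB/c mice aged 8 weeks, so every tumor grew in immune competent hosts of one strain. RNA-Seq was performed on 17 tumors. Untreated tumors were collected on day 6 (d6, n = 3), day 10 (d10, n = 5) and day 14 (d14, n = 3), and tumors of mice given 200 µg of an antibody against CTLA-4 per intraperitoneal injection were collected on d10 (n = 3) and d14 (n = 3). The treated d14 mice had been injected on d6 and d10, whereas the injection days of the treated d10 mice are not given in the sources used here. CTLA-4 is an inhibitory receptor of T cells that binds costimulatory ligands on dendritic and other antigen-presenting cells. No control antibody is named for the untreated mice, and all tumors derive from 1 cell line.

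The unit throughout is normalized CPM (read counts relative to the library total, scaled over the 17 libraries with TMM), unless a value is called a log2 fold change. Total counts per tumor lay between 46371577 and 96759833, with a median of 72413343. Every one of the 10 genes passed the filter on low counts in all 7 comparisons, but *Cd209a* and *Ccl17* were scarce, with 13 to 23 *Cd209a* counts in the treated d10 tumors and 34 to 63 *Ccl17* counts in the d14 tumors. Some genes of the lists read below were also scarce. In untreated d14 tumors *Il4* was at 0.03869 to 0.05035, *Il13* at 0.04028 to 0.3095 and *Ccr4* at 0.05159 to 0.1749. *Cd209e* was there at 0.06729 to 0.1007, *Clec4a4* at 0.05383 to 0.1032 and *Il12a* at 0.03869 to 0.1615. *Cd209d* was at 0.01461 to 0.07165 in treated d10 tumors. Log2 fold changes of these genes rest on few reads. A gene was called when its Benjamini-Hochberg adjusted p over all tested genes was below 0.05 and its log2 fold change was above 1 in size.

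The tumors were bulk tissue, so fewer cells of a type and less RNA per cell cannot be told apart. Leukocyte RNA was present in every library, with *Ptprc*, which encodes CD45, between 121.6 and 316, and the 7 general dendritic cell markers (*Itgax*, *Flt3*, *Zbtb46*, *H2-Aa*, *H2-Ab1*, *H2-Eb1* and *Cd74*) summed to between 2929 and 8855. These markers are not specific, since macrophages and B cells carry most of them. Several of the 10 genes are shared as well: *Irf8* is also used by macrophages and B cells, and *Ccl22* can be secreted by macrophages. Some libraries stood apart. Untreated d10 replicates 4 and 5 differed from replicates 1 to 3 in 1366 of 17321 genes (7.89%), which did not include 9 of the 10 genes here, the exception being *Ccl17* (log2 fold change of -1.31, SE 0.38, adjusted p = 0.043). *Mir6236*, for example, was at 69.2 to 191 in replicates 1 to 3 and at 2.06 and 2.10 in replicates 4 and 5. The same gene also separated the groups, with 75.3 to 94.7 in d6 tumors, 2.97 to 18.2 in treated d10 tumors and 0.0503 to 0.260 in the d14 tumors, treated or not. Which library came from which sequencing run is not given in the sources used here, so sequencing run and day or treatment cannot be told apart in any comparison below. In addition, replicate 4 held the most B cell RNA of all libraries, with a summed level of 163.6 for 5 B cell markers against 42.0 to 50.01 in the other d10 tumors. Where a call changed with only 1 of the sets of d10 libraries, its values against both sets are given.

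**Figure D1:**
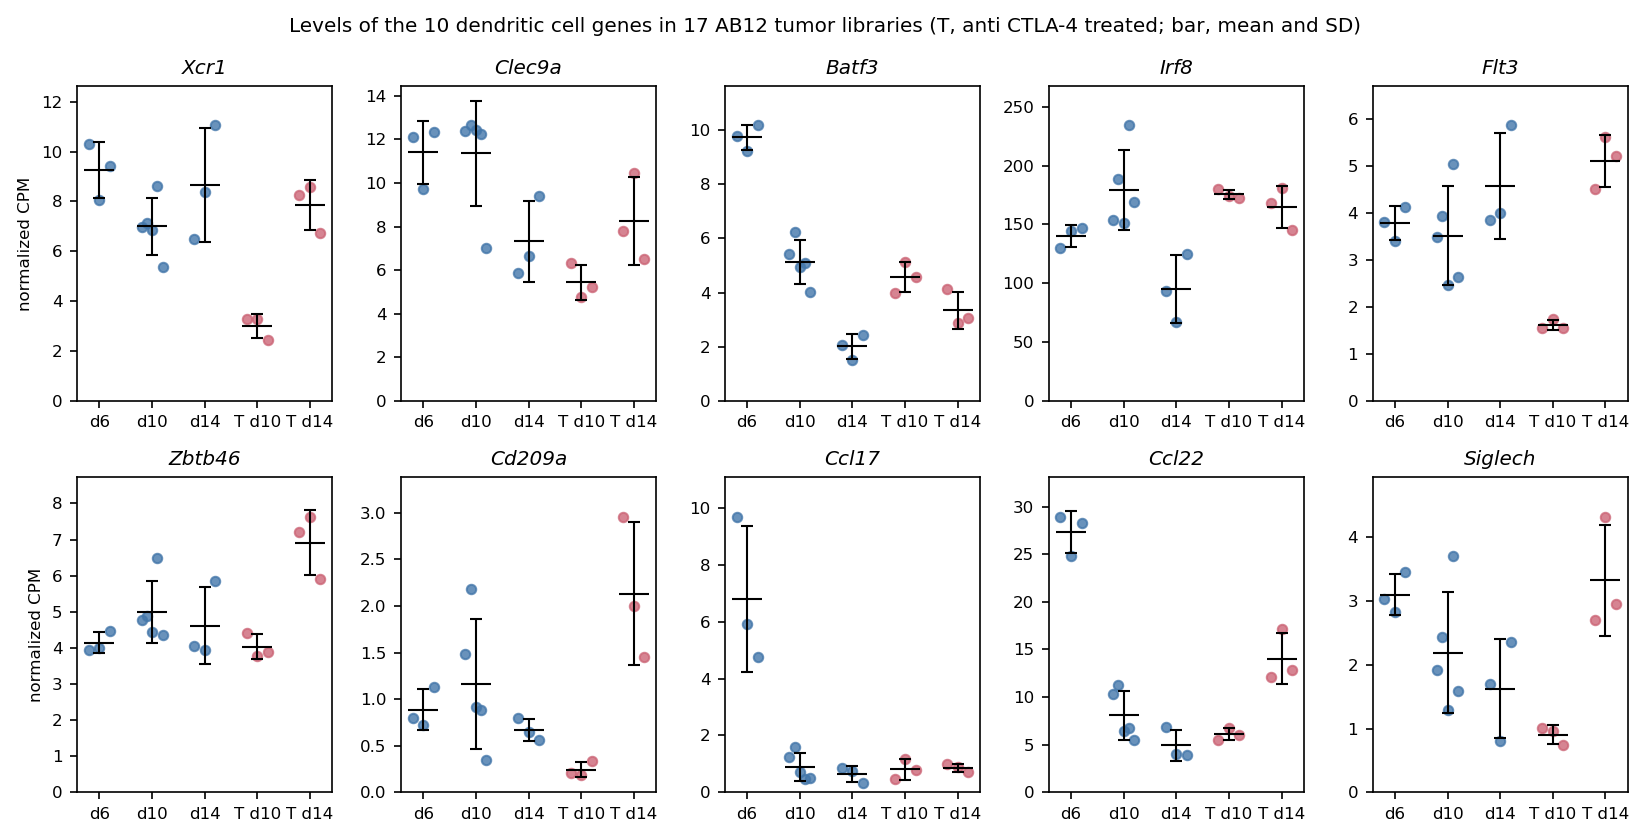
Normalized CPM of the 10 genes (vertical axes, each starting at 0) in untreated d6, d10 and d14 tumors (blue) and in anti CTLA-4 treated d10 and d14 tumors (red, T). Each point is 1 tumor, and bars give the mean and SD. *Ccl17* and *Ccl22* were highest in the 3 d6 tumors, and *Xcr1*, *Flt3* and *Cd209a* were lowest in the 3 treated d10 tumors.

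Per kilobase of exon, the 10 genes spanned a wide range of levels. In d6 tumors *Irf8* was the most abundant (19.9 ± 1.33 CPM per kilobase, SD, n = 3), followed by *Ccl17* (13.2 ± 5.00) and *Ccl22* (11.8 ± 0.96), which did not differ beyond their spread. *Batf3* came next at 6.09 ± 0.29, then *Clec9a* at 3.46 ± 0.44 and *Xcr1* at 2.08 ± 0.26. *Siglech* (0.92 ± 0.09), *Flt3* (0.61 ± 0.06), *Cd209a* (0.56 ± 0.14) and *Zbtb46* (0.49 ± 0.03) stood at the bottom, where the interval of *Cd209a* overlapped those of *Flt3* and *Zbtb46*, which did not overlap each other. In treated d14 tumors the order had changed. *Irf8* still led with 23.4 ± 2.53, but *Ccl22* was second (6.04 ± 1.16), *Ccl17* had moved to sixth (1.68 ± 0.27), and *Batf3* (2.10 ± 0.43) lay within the spread of *Clec9a* (2.5 ± 0.61) and *Xcr1* (1.77 ± 0.22).

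To show the regulatory context of the genes that moved most, the sequences before the start sites of *Cd209a*, *Ccl17* and *Ccl22* are given 5′ to 3′ on the strand of the gene. *Ccl22* (chr8:94745590-94751699, plus strand) and *Ccl17* (chr8:94810453-94812036, plus strand) are neighbors on chromosome 8, with 58753 bases between them, and both encode ligands of the receptor CCR4. *Cd209a* (chr8:3743397-3748984, minus strand) lies elsewhere on the same chromosome and encodes a C-type lectin of the DC-SIGN family. The windows, taken from RefSeq (GRCm38.p6), are chr8:3748975-3749234 for *Cd209a*, chr8:94810203-94810462 for *Ccl17* and chr8:94745434-94745599 for *Ccl22*, each ending 10 bases into the annotated gene. Capitals mark the only motif match in the 3 sequences.
Cd209a: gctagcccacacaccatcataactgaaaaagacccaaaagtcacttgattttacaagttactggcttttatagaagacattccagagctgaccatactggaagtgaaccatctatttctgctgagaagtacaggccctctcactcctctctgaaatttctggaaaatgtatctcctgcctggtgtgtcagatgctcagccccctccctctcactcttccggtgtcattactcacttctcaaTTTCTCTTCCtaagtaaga
Ccl17: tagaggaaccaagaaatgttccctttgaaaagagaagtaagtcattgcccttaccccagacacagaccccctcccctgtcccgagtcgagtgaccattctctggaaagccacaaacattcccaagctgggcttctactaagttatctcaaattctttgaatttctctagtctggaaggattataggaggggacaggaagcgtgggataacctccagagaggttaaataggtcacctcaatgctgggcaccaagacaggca
Ccl22: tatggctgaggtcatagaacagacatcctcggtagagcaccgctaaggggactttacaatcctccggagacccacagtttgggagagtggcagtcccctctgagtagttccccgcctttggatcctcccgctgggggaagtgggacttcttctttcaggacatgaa
Motifs were searched on both strands of 32851 promoters of 300 bases (250 before and 50 after the start). They were the NF-kB consensus (found in 4.51% of promoters), the AP-1 motif TGANTCA (7.81%), the ETS-IRF composite motif (GGAA, any 2 bases, then GAAA, 2.72%) and the IRF repeat (GAAA, any 2 bases, then GAAA, 3.44%). The last 2 motifs share the letters GAAA and can overlap. The *Cd209a* promoter held the ETS-IRF composite motif on the opposite strand, with its first base at position -9 from the RefSeq start, and the window of *Zbtb46* held the AP-1 motif at position -61. The RefSeq start used for *Zbtb46* lies 35038 bases inside the annotated gene, so this match is at an internal start. No match was found in the windows of the other genes, which says only that these letters are not there.

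The question of the first comparison was how the subset genes differ between early and intermediate tumors. The chemokines of mature dendritic cells were much lower at d10 than at d6, whereas the cDC1 surface receptors and the shared genes did not pass the test. *Ccl17* was at 9.68, 5.93 and 4.76 in the d6 tumors. At d10 it was at 1.24, 1.58, 0.723, 0.456 and 0.507. All 5 d10 tumors thus lay below all 3 d6 tumors, and *Ccl17* fell by 2.89 on the log2 scale (SE 0.42, adjusted p = 0.0019), or 7.43-fold. *Ccl22* was at 28.9, 24.8 and 28.3 at d6 and at 10.4, 11.3, 6.43, 6.75 and 5.54 at d10. The groups did not overlap here either, and *Ccl22* fell by 1.74 (SE 0.22, adjusted p = 0.0011), or 3.33-fold. These were the 2 of 10 genes called, both lower, where 2.66% of the 16866 tested genes were called lower and 4.79% higher.

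*Batf3* (chr1:191097847-191108945, plus strand), the factor required for cDC1 development, was also lower at d10, but by less than the fold change limit. It was at 9.79, 9.23 and 10.2 in d6 tumors and at 5.43, 6.22, 4.93, 5.07 and 4.01 in d10 tumors, which did not overlap. Its log2 fold change was -0.90 (SE 0.15, adjusted p = 0.0043). Against d10 replicates 4 and 5 alone it was -1.09, past both thresholds, and against replicates 1 to 3 alone -0.79, which was not. *Irf8* (chr8:120736358-120756694, plus strand), which encodes the partner factor that sets cDC1 identity, ran the other way. It was at 129.6, 144 and 147 at d6 and at 154, 189, 151, 234 and 169 at d10, without overlap, although its log2 fold change of 0.38 (SE 0.15, adjusted p = 0.11) did not pass. In all, 3 of the 10 genes lay lower at d10 without overlap and 1 higher, beside 14.4% and 14.1% of tested genes.

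For the other genes the 2 days overlapped and neither threshold was passed. *Xcr1* (chr9:123852315-123862029, minus strand), the receptor through which cDC1 sense XCL1 of T and NK cells, was at 10.3, 8.04 and 9.44 at d6 and at 6.99, 7.14, 6.87, 8.63 and 5.35 at d10 (log2 fold change of -0.38, SE 0.17, adjusted p = 0.14). *Clec9a* (chr6:129408862-129424763, plus strand), the receptor for exposed actin of dead cells, was at 12.1, 9.74 and 12.3 at d6. At d10 it was between 12.2 and 12.6 in 4 tumors and at 7.02 in replicate 5. Its log2 fold change was 0.01 (SE 0.20, adjusted p = 0.97). Exons of *Clec9a* overlap those of *Clec1b* on the same strand, which had at most 219 counts in a library. *Flt3* (log2 fold change of -0.08, SE 0.24), *Zbtb46* (0.29, SE 0.17), *Cd209a* (0.41, SE 0.50) and *Siglech* (-0.48, SE 0.31) had adjusted p between 0.27 and 0.85.

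**Figure D2:**
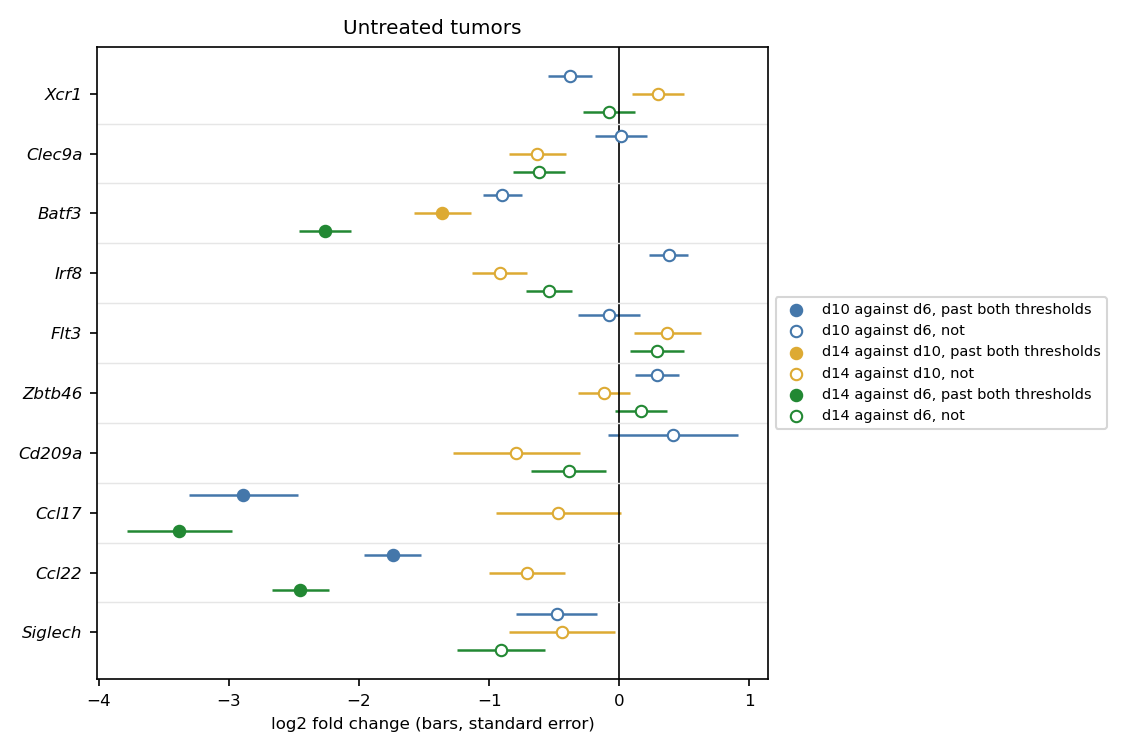
Log2 fold changes (horizontal axis, with standard errors) of the 10 genes between untreated tumors of different days. Filled points passed an adjusted p of 0.05 and a log2 fold change of 1. *Ccl17*, *Ccl22* and *Batf3* reached -3.38, -2.45 and -2.26 between d6 and d14, while *Xcr1*, *Flt3* and *Zbtb46* stayed near 0.

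The next question was how advanced tumors differ from intermediate ones. *Batf3* was lower still, *Irf8* was lower as well, and the chemokines stayed low. *Batf3* was at 2.07, 1.51 and 2.45 at d14, below all 5 d10 tumors, and fell by 1.36 (SE 0.22, adjusted p = 0.0066). It was the 1 gene of 10 called, where 3.45% of 17659 tested genes were called lower and 3.78% higher. Below all d10 tumors lay 2 of the 10 genes, beside 13.2% of tested genes. *Irf8* was at 93.7, 66.75 and 125 at d14, again below all d10 tumors, with a log2 fold change of -0.92 (SE 0.21, adjusted p = 0.018). Without d14 replicate 3, the highest of the 3, its log2 fold change was -1.16 and passed both thresholds, as it did at -1.10 against d10 replicates 4 and 5 alone but not at -0.79 against replicates 1 to 3. *Ccl22* was at 6.85, 4.02 and 3.97 at d14 (log2 fold change of -0.71, SE 0.29, adjusted p = 0.11), and *Ccl17* at 0.848, 0.748 and 0.342 (-0.47, SE 0.48, adjusted p = 0.50), so both groups of tumors overlapped. *Cd209a* (log2 fold change of -0.79, SE 0.49, adjusted p = 0.27) was -1.19 and past the thresholds against d10 replicates 1 to 3, but 0.09 against replicates 4 and 5. The log2 fold changes of *Xcr1* (0.30), *Flt3* (0.37), *Zbtb46* (-0.12), *Siglech* (-0.44) and *Clec9a* (-0.63) had adjusted p between 0.073 and 0.69.

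Over the whole course from d6 to d14, the cDC1 genes differed from one another. *Batf3* fell by 2.26 (SE 0.20, adjusted p = 6.9e-05), or 4.78-fold, and *Clec9a* had a log2 fold change of -0.62 (SE 0.20, adjusted p = 0.026), with 5.88, 6.67 and 9.42 at d14. *Irf8* was at -0.54 (SE 0.18, adjusted p = 0.034). *Xcr1* in contrast was at 6.51, 8.40 and 11.1 at d14, around its d6 values, with a log2 fold change of -0.08 (SE 0.20, adjusted p = 0.76). The chemokine *Ccl17* fell by 3.38 (SE 0.40, adjusted p = 0.00022), or 10.4-fold, and *Ccl22* by 2.45 (SE 0.22, adjusted p = 7e-05), or 5.47-fold. *Siglech* (chr7:55768178-55778925, plus strand), which encodes a receptor of plasmacytoid dendritic cells, was at 3.03, 2.82 and 3.44 at d6 and at 1.70, 0.813 and 2.36 at d14. Its groups did not overlap, and its log2 fold change of -0.91 (SE 0.34) had an adjusted p of 0.0497. *Flt3* (0.29), *Zbtb46* (0.17) and *Cd209a* (-0.39) had adjusted p between 0.27 and 0.49. Thus 3 of 10 genes were called, all lower, beside 8.81% of 17172 genes called lower and 10.2% called higher. By adjusted p alone 6 were lower, beside 26.0% of all genes, and none was higher. The same 6 genes were lower in all d14 than in all d6 tumors, beside 31.6% of all genes. These 3 comparisons share tumors with each other, so their values are not independent of one another.

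Genes that accompany these subsets were read from 5 lists. Of all tested genes, 2.66% were called lower and 4.79% higher from d6 to d10. These shares were 3.45% and 3.78% from d10 to d14, and 8.81% and 10.2% from d6 to d14. They stand beside the counts of all 5 lists. In the list of DC development and cDC1 genes, 2 of 11 were called lower at d10 than at d6 and 1 higher. *Tlr3*, the receptor for double-stranded RNA that cDC1 use, had a log2 fold change of -1.77, *Ifi205* of -1.83, and *Id2*, a factor needed for cDC1 that many lymphocytes also use, of 1.11. From d6 to d14, 3 of 11 were called lower (*Tlr3* at -1.39, *Ifi205* at -1.84, *Snx22* at -2.08) and none higher, and none was called between d10 and d14. From d6 to d10, from d10 to d14 and from d6 to d14 the list's median log2 fold changes were -0.07, 0.10 and -0.02, beside 0.03, -0.04 and 0.01 over all tested genes.

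The cDC2 and monocyte-derived list held 12 tested genes. From d6 to d10, 3 were called lower, namely *Cd209b* (-2.23), *Cd209c* (-1.84) and the lectin *Mgl2* (-1.42), and 1 was called higher, *Sirpa* (1.12), which macrophages carry as well. Between d10 and d14, *Cd209e* (-2.24) and *Mgl2* (-1.92) were called lower. From d6 to d14, 5 were called lower and none higher: *Cd209b* (-3.75), *Mgl2* (-3.35), *Cd209e* (-3.01), *Cd209c* (-2.15) and *Clec10a* (-1.54). The list's medians were -0.22, -0.79 and -0.90. *Mgl2* went from between 71.4 and 112 at d6 to between 16.6 and 53.1 at d10 and between 4.11 and 14.4 at d14, so that no 2 days overlapped.

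Among 17 genes of mature migratory dendritic cells, 2 were called lower at d10 than at d6. They were *Ccr7* (-1.43), the receptor that guides dendritic cells to lymph nodes, and *Il12b* (-1.20), which encodes the shared subunit of IL-12 and IL-23. *Cd40* (-1.09) and *Ccl19* (-2.12) followed between d10 and d14, and from d6 to d14 *Ccr7* (-1.66), *Cd40* (-1.78), *Cd83* (-1.04), *Il4i1* (-1.61) and *Ccl19* (-2.32) were called lower. No gene of the list was called higher in the 3 comparisons, and its medians were -0.14, -0.23 and -0.70. *Ccr7* was between 8.01 and 9.70 at d6, between 1.37 and 5.66 at d10 and between 1.81 and 3.90 at d14, so it was highest at d6, as *Ccl17* and *Ccl22* were.

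Of 13 plasmacytoid dendritic cell genes, 8 were called lower at d14 than at d6 and none higher, with a median of -1.34. Over all tested genes, 8.81% were called lower and 10.2% higher. The 5 with the largest log2 fold changes were *Klk1* (-2.37), *Cox6a2* (-2.13), *Ccr9* (-1.96), *Tlr9* (-1.82) and *Irf7* (-1.77), where *Tlr9* senses unmethylated DNA and *Irf7* drives interferon genes in many cell types. From d6 to d10, *Klk1* (-1.92) and *Irf7* (-1.79) were called lower and *Lag3* (1.21), which exhausted T cells carry too, higher (median -0.76). Between d10 and d14, *Ccr9* (-1.21), *Cox6a2* (-1.35) and *Lag3* (-1.07) were called lower (median -0.71).

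The last list held factors that feed or attract dendritic cells and the receptors of their chemokines. *Ccr4*, the receptor of CCL17 and CCL22, was between 1.07 and 1.82 at d6, between 0.253 and 0.444 at d10 and between 0.0516 and 0.175 at d14. It fell by 2.13 to d10 (SE 0.28, adjusted p = 0.0013), as its ligands did, and by 1.39 from d10 to d14 (SE 0.43, adjusted p = 0.0467). Of 20 tested genes, 7 were called lower at d10 than at d6 and 3 higher (median -0.39). *Ccl20* (-3.03), *Cxcl10* (-2.04) and *Il13* (-1.94) stood on the lower side, and *Ccl5* (3.07) on the higher side. From d6 to d14, 9 of 19 were called lower and 1 higher (median -0.77), with *Il13* at -4.18, *Il4* at -3.97, *Ccr4* at -3.52 and *Ccl20* at -3.28. The first 3 of these were scarce at d14, with *Il4* at 0.03869 to 0.05035 and *Il13* at 0.04028 to 0.3095. Between d10 and d14, 4 of 20 were called lower and none higher (median -0.78), namely *Il4* (-2.11), *Xcl1* (-1.52), *Ccr4* (-1.39) and *Cxcr3* (-1.26). *Xcl1*, the ligand of XCR1, was between 9.31 and 15.6 at d6, between 4.94 and 10.9 at d10 and between 2.52 and 3.20 at d14, whereas *Xcr1* itself did not differ between d6 and d14 beyond its spread.

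Of the 7 general dendritic cell markers, 3 were called higher at d10 than at d6 and none lower. They were *H2-Eb1* (1.55), *H2-Aa* (1.23) and *H2-Ab1* (1.19). Between d10 and d14, *Itgax* (-1.6) and *H2-Ab1* (-1.52) were called lower, and none was called between d6 and d14. The 7 markers summed to 3592 to 3628 at d6, 5232 to 8855 at d10 and 2929 to 5363 at d14. In the same untreated tumors markers of other cells moved as well. Of 7 T cell markers, 6 were called higher at d10 than at d6. From d6 to d14, 4 of the 7 were called higher and 1 lower, *Cd4* (-1.59). Their summed level was 53.8 to 58.6 at d6, 223 to 298 at d10 and 92.75 to 166.5 at d14. Of 12 macrophage and monocyte markers none was called between d6 and d10, and 5 were called lower at d14 than at d10, with sums of 2703 to 2874, 3285 to 5110 and 1318 to 2577. The sums of 3 NK cell markers were 11.1 to 13.2, 10.9 to 15.8 and 3.77 to 7.25, and those of 4 mesothelial markers 858 to 1167, 945 to 1638 and 1127 to 1262. The lower *Irf8* at d14 thus went along with lower macrophage markers, and their part in it was not tested.

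To ask what changes under treatment, treated tumors were compared with untreated ones of the same day. At d10 none of the 10 genes was called by edgeR, and 3 of 17258 genes (0.0174%) were called at all. However, 5 genes were lower in all 3 treated tumors than in all 5 untreated tumors, a pattern that 4.59% of tested genes showed. *Xcr1* was at 3.27, 3.30 and 2.43 in the treated d10 tumors, against 5.35 to 8.63 without treatment (log2 fold change of -1.22, SE 0.19, adjusted p = 0.078). *Clec9a* was at 6.34, 4.78 and 5.23 against 7.02 to 12.6 (-1.06, SE 0.21, adjusted p = 0.14).

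*Flt3* (chr5:147330741-147400489, minus strand), the receptor of the growth factor on which dendritic cell precursors depend, was at 1.55, 1.74 and 1.56 in treated d10 tumors. Without treatment it was at 3.49, 3.95, 2.47, 5.05 and 2.64 (log2 fold change of -1.12, SE 0.25, adjusted p = 0.19). *Siglech* was at 1.02, 0.964 and 0.739, against 1.92, 2.43, 1.29, 3.70 and 1.58 (-1.27, SE 0.34, adjusted p = 0.23). *Cd209a* was at 0.203, 0.190 and 0.333, against 1.485, 2.18, 0.914, 0.888 and 0.343 (-2.26, SE 0.56, adjusted p = 0.21), and its lowest untreated tumor, replicate 5, lay next to the highest treated one.

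These 5 were also the members with an unadjusted p below 0.05, beside 13.5% of all tested genes. DESeq2 called all 5, and 223 genes in all, with 0.956% of tested genes called lower. Against d10 replicates 1 to 3 alone edgeR called the same 5 genes, where 4.85% of tested genes were called lower, with *Xcr1* at -1.21 (adjusted p = 0.0011), *Clec9a* at -1.19 (0.00059), *Flt3* at -1.02 (0.006), *Cd209a* at -2.65 (0.0014) and *Siglech* at -1.04 (0.016). Against replicates 4 and 5 alone none was called (0.210% of tested genes called lower), with *Xcr1* at -1.23 (0.079), *Clec9a* at -0.83 (0.15), *Flt3* at -1.26 (0.095), *Cd209a* at -1.37 (0.20) and *Siglech* at -1.55 (0.11). Without d10 replicate 5, 3 of them (*Xcr1*, *Clec9a* and *Cd209a*) were called, beside 0.401% of tested genes called lower.

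The remaining 5 genes overlapped between treated and untreated d10 tumors. *Irf8* was at 180.0, 174 and 173 (log2 fold change of -0.03, SE 0.14, adjusted p = 0.94) and *Batf3* at 4.0, 5.11 and 4.56 (-0.17, SE 0.17, adjusted p = 0.67). *Zbtb46* (chr2:181387762-181459426, minus strand), a zinc finger factor of conventional dendritic cells, was at 4.42, 3.77 and 3.90 (-0.31, SE 0.17, adjusted p = 0.44). *Ccl17* (-0.16, SE 0.47) and *Ccl22* (-0.40, SE 0.24) had adjusted p of 0.90 and 0.48.

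Marker sums of B cells and lymphoid stroma did not overlap between the same tumors, although none of the 5 B cell markers and none of the 3 tested stroma markers was called. The 5 B cell markers summed to 30.1 to 34.7 in treated d10 tumors and to 42.0 to 163.6 in untreated ones. Likewise, 4 lymph node stroma markers (*Ccl19*, *Ccl21a*, *Cxcl13* and *Cr2*, of which *Cxcl13* made up most of the sum) were at 5.79 to 10.02 and at 14.85 to 99.2, with the highest value again in d10 replicate 4, while *Ccl21a* was at or near 0 in every group. The part of these cells in the lower *Siglech*, *Flt3*, *Xcr1*, *Clec9a* and *Cd209a* was not tested. Without d10 replicate 4, the library richest in both sets of markers, the log2 fold changes were -1.14 for *Xcr1*, -1.03 for *Clec9a*, -0.96 for *Flt3*, -2.34 for *Cd209a* and -1.0 for *Siglech*. *Ptprc* was at 153.7 to 213.5 in treated and 163 to 249 in untreated d10 tumors, and the macrophage markers summed to 3113 to 3589 and 3285 to 5110. No gene of the 5 lists was called in this comparison, and the list medians lay between -0.28 and -0.54, beside -0.01 over all tested genes.

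**Figure D3:**
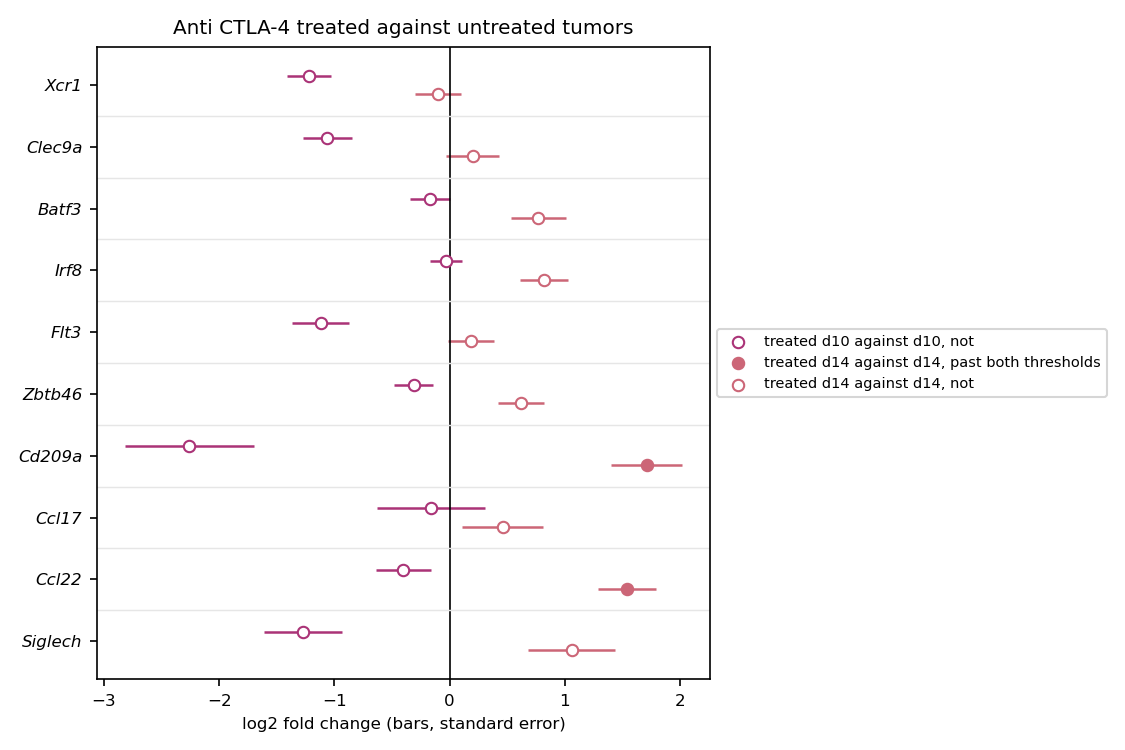
Log2 fold changes (horizontal axis, with standard errors) of treated against untreated tumors at d10 and at d14 for the 10 genes. Filled points passed an adjusted p of 0.05 and a log2 fold change of 1. At d10 all 10 values were below 0, down to -2.26 for *Cd209a*, and at d14 all but *Xcr1* (-0.10) were above 0, up to 1.71 for *Cd209a*.

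At d14 the treated tumors showed more *Cd209a* and *Ccl22* RNA than untreated tumors. *Cd209a* was at 2.96, 1.99 and 1.45 with treatment and at 0.794, 0.645 and 0.564 without. The groups did not overlap, and it rose by 1.71 on the log2 scale (SE 0.31, adjusted p = 0.0085), or 3.28-fold. *Ccl22* was at 12.1, 17.1 and 12.9 with treatment and at 6.85, 4.02 and 3.97 without, and it rose by 1.54 (SE 0.25, adjusted p = 0.0067), or 2.90-fold. These 2 of 10 genes were called higher, beside 9.07% of 18062 genes called higher and 2.40% called lower. *Ccl17*, the neighbor of *Ccl22*, was at 0.995, 0.878 and 0.719 with treatment, within reach of the untreated tumors (log2 fold change of 0.46, SE 0.35, adjusted p = 0.34).

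A further 3 genes passed the adjusted p but not the fold change limit. *Irf8* was at 168, 181 and 146 with treatment against 93.7, 66.75 and 125 without (log2 fold change of 0.82, SE 0.21, adjusted p = 0.022). *Batf3* was at 4.13, 2.87 and 3.04 against 2.07, 1.51 and 2.45 (0.77, SE 0.24, adjusted p = 0.044). *Zbtb46* was at 7.21, 7.63 and 5.91 against 4.06, 3.93 and 5.85 (0.62, SE 0.20, adjusted p = 0.045), the closest approach of the 3. In total 5 of 10 genes were higher by adjusted p, beside 17.7% of all tested genes. *Siglech*, at 2.70, 4.31 and 2.95 against 1.70, 0.813 and 2.36, did not overlap either, but its log2 fold change of 1.06 (SE 0.38) had an adjusted p of 0.064. Thus 6 of 10 genes were higher in all treated than in all untreated d14 tumors, beside 24.2% of tested genes. Without untreated d14 replicate 3, *Irf8* (1.10) and *Siglech* (1.46) were called too, beside 11.8% of tested genes called higher. That tumor had the highest *Xcr1*, *Clec9a*, *Batf3*, *Irf8*, *Flt3*, *Zbtb46* and *Siglech* of the 3 untreated d14 tumors. It also had the highest sums of B cell markers (78.7, against 48.8 and 52.6) and of lymph node stroma markers (41.0, against 13.3 and 20.45). The same held for *Ptprc* (202.1, against 153.6 and 121.6), macrophage and monocyte markers (2577, against 1955 and 1318) and T cell markers (166.5, against 140.6 and 92.75). NK cell markers were not highest there (6.90, against 7.25 and 3.77).

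The receptors of cDC1 and *Flt3* showed no such difference. *Xcr1* was at 8.27, 8.58 and 6.73 in treated d14 tumors and at 6.51, 8.40 and 11.1 in untreated ones (log2 fold change of -0.10, SE 0.20, adjusted p = 0.72). *Clec9a* was at 7.79, 10.4 and 6.51 against 5.88, 6.67 and 9.42 (0.20, SE 0.23, adjusted p = 0.52). *Flt3* was at 4.52, 5.61 and 5.22 against 3.85, 4.0 and 5.87 (0.19, SE 0.20, adjusted p = 0.48).

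Of all tested genes, 9.07% were called higher in treated than in untreated d14 tumors and 2.40% lower, with a median of -0.00. Of the accompanying lists, the cDC2 and monocyte-derived genes had 4 of 13 called higher and none lower (median 0.83). They were *Cd209e* (2.59), the macrophage and dendritic cell receptor *Sirpa* (1.51), *Irf4* (1.38), a factor that cDC2 need, and *Clec4a4* (1.36). In the mature list 4 of 17 were called higher, namely *Il4i1* (1.26), *Cd40* (1.09), *Ccr7* (1.06) and *Cd200* (1.04), with a median of 0.60. The plasmacytoid list had 2 of 13 called higher (median 0.83). They were *Ccr9* (1.53) and *Klk1* (5.14), but *Klk1* spanned 2.35 to 83.2 among the 3 treated tumors. None of the 11 DC development and cDC1 genes was called (median 0.10).

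Of 19 growth factor, chemoattractant and receptor genes, 6 were called higher and 1 lower (median 0.89), beside 9.07% and 2.40% of all tested genes. *Ccr4* rose by 2.49 (SE 0.40, adjusted p = 0.0066), from 0.0516 to 0.175 without to 0.631 to 0.780 with treatment, along with its ligand *Ccl22*. The others with large values were *Il12a* (2.54), *Il13* (2.53), *Cxcr3* (1.86) and *Il12rb2* (1.15), and *Tslp* (-1.13) was the gene called lower. Markers of other leukocytes were higher too. Of the macrophage and monocyte markers 8 of 12 were called higher, with sums of 3910 to 4729 against 1318 to 2577, and 3 of 7 T cell markers, with sums of 245 to 279 against 92.75 to 166.5. *Ptprc* was at 272 to 316 against 121.6 to 202 (log2 fold change of 0.94). The sums of 5 neutrophil markers were 140 to 186 against 56.9 to 113, and those of the 4 mesothelial markers were 742 to 846 against 1127 to 1262, neither with overlap. The mesothelial markers did not share 1 direction, with log2 fold changes of -0.38 for *Msln*, -0.77 for *Krt19*, 1.46 for *Upk3b* and 1.54 for *Wt1*, the one gene of the 4 called. The part of these cells in the higher *Irf8*, *Ccl22* and *Cd209a* was not tested.

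Whether the difference between treated and untreated tumors changed from d10 to d14 was tested directly as an interaction, in 1 fit of the 4 groups. All 10 values were positive, meaning that treated minus untreated was more positive at d14 than at d10. *Cd209a* had the largest value, 3.96 (SE 0.70, adjusted p = 0.0041), followed by *Siglech* (2.32, SE 0.54, adjusted p = 0.012) and *Ccl22* (1.93, SE 0.38, adjusted p = 0.0055). The cDC1 receptors *Clec9a* (1.25, SE 0.33, adjusted p = 0.020) and *Xcr1* (1.10, SE 0.28, adjusted p = 0.018) and the growth factor receptor *Flt3* (1.30, SE 0.33, adjusted p = 0.018) were called as well. That made 6 of 10 genes called, all positive, beside 9.67% of 18574 genes called positive and 2.15% called negative. *Batf3* (0.93), *Zbtb46* (0.91) and *Irf8* (0.84) had adjusted p of 0.040, 0.027 and 0.040 without reaching the fold change limit, so 9 of 10 passed by adjusted p, beside 11.9% of all genes. *Ccl17* (0.60, SE 0.65, adjusted p = 0.57) was the exception.

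The interaction calls of *Xcr1*, *Clec9a* and *Flt3* depended on single tumors. Without untreated d14 replicate 2, or without treated d14 replicate 2, only *Cd209a*, *Ccl22* and *Siglech* were called, beside 5.45% and 5.96% of tested genes called positive. In those fits *Flt3* was at 1.19 and 1.21, *Xcr1* at 1.06 and 1.01 and *Clec9a* at 1.16 and 1.02, with adjusted p between 0.0521 and 0.069. *Xcr1* was also not called without treated d10 replicate 3 (0.97), untreated d14 replicate 1 (0.93) or treated d14 replicate 1 (1.05), and *Clec9a* not without treated d10 replicate 2 (1.17), treated d10 replicate 3 (1.21) or untreated d14 replicate 1 (1.11), with adjusted p between 0.0472 and 0.055. Without untreated d14 replicate 3, all but *Ccl17* were called, beside 10.2% of tested genes called positive. With only d10 replicates 4 and 5 as the untreated d10 group, *Clec9a* was not called (1.03, adjusted p = 0.061), and *Irf8* (1.03) and *Zbtb46* (1.05) were. With only replicates 1 to 3, *Clec9a* (1.39) and *Batf3* (1.03) were called, while *Irf8* (0.72) and *Zbtb46* (0.83) were not, and *Batf3* was at 0.76 and not called with replicates 4 and 5. The d10 and d14 differences use separate tumors, but the injection days of the treated d10 mice are not given, so day and schedule cannot be told apart.

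The interaction was also read in the lists, where 9.67% of all tested genes is the share called positive. Positive calls numbered 5 of 13 cDC2 and monocyte-derived genes, led by *Cd209e* (3.60) and *Cd209d* (3.39), and 5 of 17 mature genes, led by *Il4i1* (2.53). They also numbered 5 of 13 plasmacytoid genes, led by *Klk1* (6.19) and *Ccr9* (2.41). Of growth factor, chemoattractant and receptor genes it was 8 of 20, led by *Il12a* (4.03), *Il13* (3.29) and *Ccr4* (3.01). However, *Klk1* spanned 2.35 to 83.2 among the treated d14 tumors, and *Cd209e*, *Cd209d*, *Il12a*, *Il13* and *Ccr4* were scarce. Of the DC development and cDC1 genes 1 of 11 was called (*Id2*, 1.12), near that share, and *Tlr3* was negative (-0.59, adjusted p = 0.040) without reaching the fold change limit. None of the 5 lists had a negative call, and their medians lay between 0.46 and 1.29, beside -0.02 over all tested genes. *Ptprc* (1.18), 9 of 12 macrophage and monocyte markers, 5 of 7 T cell markers, 2 of 3 NK cell markers and 2 of 5 neutrophil markers were called positive too. So were 4 of 5 B cell markers (3.93 to 4.38), 2 of 3 tested lymph node stroma markers and 2 of 4 mesothelial markers. Among these sets, *Msln* (-0.96), *Krt19* (-0.79, adjusted p = 0.0482), *Pax5* (-0.5) and *Ly6c2* (-0.85) were negative, and none of them was called. The part of these cells was not tested.

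Treated d14 tumors were also set against untreated d10 tumors, the intermediate phase. None of the 10 genes was called by edgeR or by DESeq2, while 5.34% of 18057 genes were called higher and 2.49% lower (68.2% of the calls higher, or 82.2% when libraries were scaled by total counts without TMM). At an unadjusted p below 0.05 were *Clec9a*, *Batf3*, *Zbtb46* and *Ccl22*, 4 of 10 beside 41.3% of all tested genes. By adjusted p, *Ccl22* was higher (log2 fold change of 0.76, SE 0.24, adjusted p = 0.041), beside 12.4% of all tested genes, and *Batf3* lower (-0.65, SE 0.19, adjusted p = 0.031), beside 15.3%. Treated d14 tumors thus held *Ccl22* levels (12.1 to 17.1) above those of all d10 tumors (5.54 to 11.3) and below those of all d6 tumors (24.8 to 28.9). *Ccl22* was the 1 gene of 10 above all d10 tumors, beside 17.6% of tested genes. Against d10 replicates 4 and 5 alone, *Ccl22* (1.16) and *Cd209a* (1.75) were called higher, as were 9.62% of tested genes, while against replicates 1 to 3 they were at 0.55 and 0.45 and not called. Of the lists, *Ccr4* (1.04) and *Klk1* (4.63) were called higher and *Mgl2* (-1.55), *Fcer1a* (-1.73), *Xcl1* (-2.41) and *Il4* (-1.49) lower. *Klk1* spanned 2.35 to 83.2 among the treated d14 tumors. The treated d14 and the d14 against d10 comparisons share tumors with the ones above.

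Since *Ptprc* RNA differed between tumors, each gene was also set against *Ptprc* within each library, as a log2 ratio and without a test. The share of all genes whose ratios did not overlap between groups was not counted, so the members without overlap cannot be set against it. Relative to *Ptprc*, *Ccl17* was 3.18, *Ccl22* 1.97, *Batf3* 1.09 and *Xcr1* 0.57 lower at d10 than at d6, each without overlap. At d14 *Batf3* and *Irf8* were 0.90 and 0.48 lower than at d10, and *Xcr1* and *Flt3* 0.76 and 0.87 higher, again with no overlap, while *Xcr1* at d14 overlapped d6 (0.18 higher). In treated d10 tumors the ratios of *Xcr1* (lower by 0.97), *Clec9a* (0.79) and *Cd209a* (1.82) stayed below all untreated d10 tumors, while those of *Flt3* and *Siglech* overlapped.

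In treated d14 tumors the picture differed from that of the levels. *Cd209a* alone of the 10 genes had a higher ratio to *Ptprc* in all treated than in all untreated d14 tumors (by 0.69). *Ccl22* (0.60 higher), *Siglech* (0.20 higher), *Irf8* (0.10 lower), *Batf3* (0.19 lower) and *Ccl17* (0.43 lower) overlapped. The ratios of *Xcr1* (1.05 lower), *Clec9a* (0.76 lower), *Flt3* (0.75 lower) and *Zbtb46* (0.34 lower) were below those of all untreated d14 tumors. *Ptprc* itself was higher in treated d14 tumors (log2 fold change of 0.94), so any gene with an unchanged level has a lower ratio there.

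**Figure D4:**
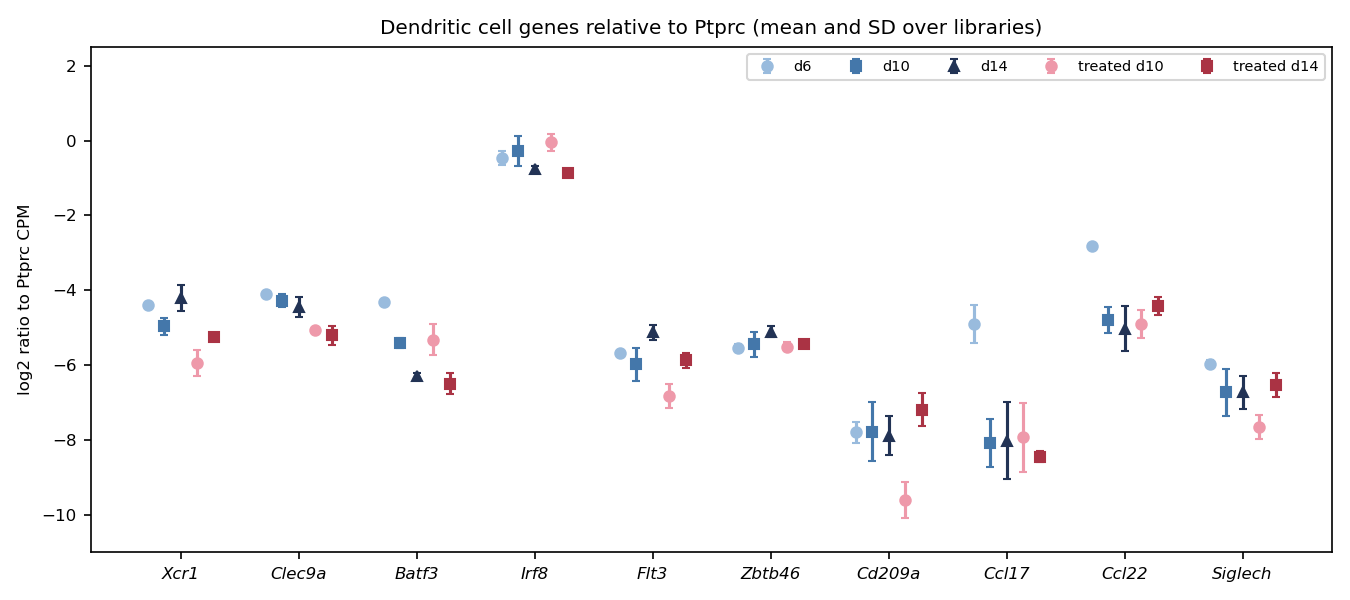
Log2 ratio of each gene's CPM to *Ptprc* CPM (vertical axis), shown as mean and SD over the 3 or 5 tumors of each group. *Irf8* lay near the level of *Ptprc* in all groups (-0.86 to -0.05), and *Ccl17* went from -4.89 at d6 to between -8.44 and -7.92 in the other groups.

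Across the 17 tumors the pairs of the 10 genes had Pearson r from -0.35 (*Zbtb46* and *Ccl17*) to 0.88. *Xcr1* was closest to *Flt3* (Pearson r of 0.88 on log2 levels) and then to *Siglech* (0.73) and *Clec9a* (0.70), but r was 0.06 with *Batf3* and -0.28 with *Irf8*. *Ccl17* and *Ccl22* had r = 0.85, and *Batf3* had r of 0.77 and 0.71 with them. These values describe tumors of 5 groups that share day and treatment, and no test was attached.

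**Figure D5:**
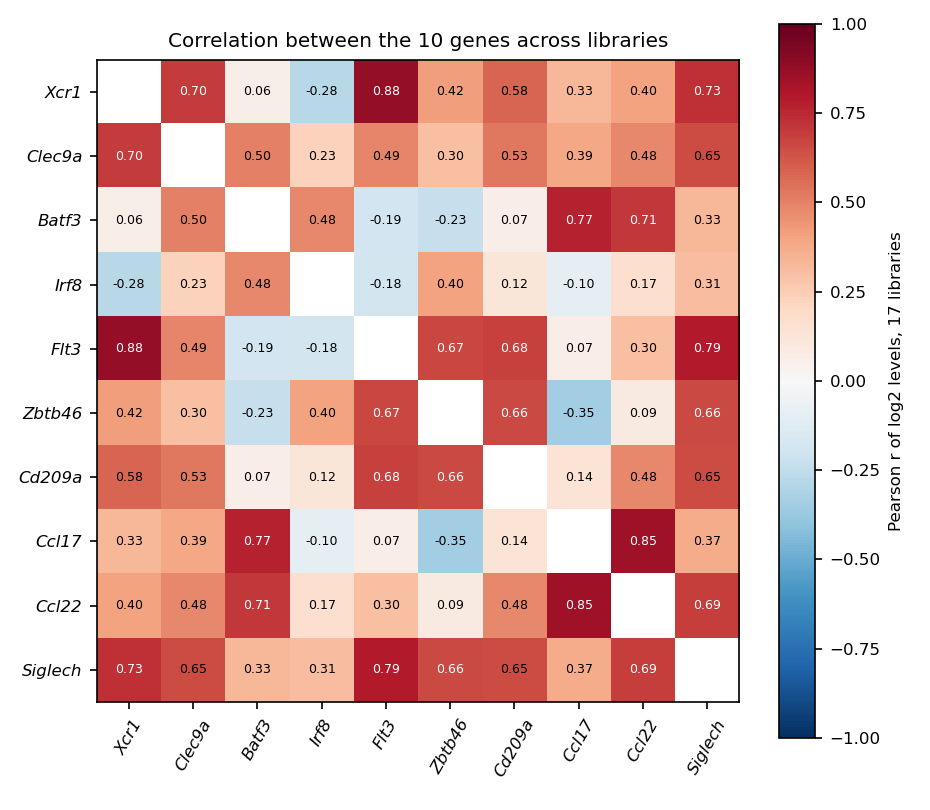
Pearson r of log2 levels between each pair of the 10 genes over the 17 tumors (color scale from -1 to 1, values printed in the cells). *Xcr1* with *Flt3* (0.88) and *Ccl17* with *Ccl22* (0.85) had the highest values, and *Zbtb46* with *Ccl17* the lowest (-0.35).

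The genes most like each of the 10 were sought among 12379 genes, by Pearson r over the 17 tumors. For *Batf3* they were the inflammasome adaptor *Pycard* (0.98), *Selenow* and *Nfkbib* (both 0.95), and for *Irf8* they were *Gna15* (0.98), *Sash3* (0.97) and *Arl6ip1* (0.96). *Xcr1* and *Flt3* shared *Sept3* (0.91 and 0.93) and *Hepacam2* (0.90 and 0.92), followed by *Btla* (0.89) for *Xcr1* and *Gcsam* (0.91) for *Flt3*. *Clec9a* went with *Gm10226* (0.90), *Hpgd* (0.88) and *Aldh1a2* (0.86), and *Zbtb46* with *Zfp831* (0.96), *Grk3* and *Pou2f2* (both 0.95). *Cd209a* went with *Dpysl3* (0.90), *Adamts5* and *Fmo5* (both 0.88), and *Siglech* with *Siglecg* (0.92), *Cmah* and the mesothelial gene *Upk3b* (both 0.91). For *Ccl22* they were *Mmp25* (0.96), *Alox5* (0.95) and *Ramp3* (0.93). For *Ccl17* they were *Ripk2* (0.95), *Plet1* and *Socs2* (both 0.94), and the 3 d6 tumors were the only ones in which *Ccl17* exceeded 1.58.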

How the data were processed

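RNA of 17 tumors (1 per mouse) was sequenced from KAPA RNA HyperPrep libraries. The authors aligned the reads to GRCm38/mm10 with TopHat2 2.0.14, and assigned the uniquely mapped reads to Gencode vM21 genes with HTSeq. Raw counts per gene, with no normalization, were deposited. Instrument per library and strand setting are not given in the sources used here. The paper names different Illumina instruments with different read lengths. Its authors removed genes with a significant batch effect between sequencing projects, and no such removal was made here.

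All 55450 rows matched Gencode release 21, and 20211 held no count. The 10 genes, the gene lists and the tests were chosen with earlier results of these data known. Differential expression was tested with edgeR 4.0.16 (R 4.3.3): filterByExpr, TMM, quasi-likelihood test, only the groups compared, Benjamini-Hochberg adjustment over all tested genes, adjusted p below 0.05 and absolute log2 fold change above 1. SE is the log2 fold change over the square root of F. The fit was tested on simulated data. Likeness used log2(CPM + 0.5) of protein coding genes with a mean CPM of at least 1. Named genes were the 10, the 3 most like each, and up to 5 called genes per list with the largest changes; other genes with levels were named after their values were seen. Replicates were separate mice, and no pair agreed within sampling noise (chi-square per gene of 18.5 or more). Alternatives were DESeq2 1.42.0, no TMM, 2 count filters, a joint fit of the 5 groups, thinning to 46371577 counts, protein coding genes, no fold change limit, parts of the d10 group, each replicate left out and a replicate block. Figures used matplotlib 3.10.9.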

Additional observations from a re-analysis of the deposited data

Results flagged for a closer look

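In the 5 untreated d10 tumors the lowest *Clec9a* level (7.02, replicate 5) lay apart from the other 4, with a gap of 0.93 of the group's range, and the highest *Zbtb46* level (6.5, replicate 4) with a gap of 0.76, where the critical value for 5 samples is 0.71. Chance flags about 1 in 20 such groups.

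The difference between treated and untreated tumors was tested between d10 and d14 by the interaction term, and it was more positive at d14 for 9 of the 10 genes by adjusted p, beside 11.9% of 18574 genes. *Ptprc* (1.18), 9 of 12 macrophage and monocyte markers and 5 of 7 T cell markers were called positive too, and their part was not tested. For *Xcr1*, *Clec9a* and *Flt3* the interaction was a negative difference at d10 and a value near 0 at d14, and their calls were lost without untreated d14 replicate 2 or treated d14 replicate 2. The values on the log2 scale were 3.96 for *Cd209a*, 2.32 for *Siglech*, 1.93 for *Ccl22*, 1.30 for *Flt3*, 1.25 for *Clec9a*, 1.10 for *Xcr1*, 0.93 for *Batf3*, 0.91 for *Zbtb46* and 0.84 for *Irf8*.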

How the results depend on the processing

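Of 1240 values of the 10 genes under the alternatives, 1147 kept their direction and their side of the thresholds, 47 newly passed, 13 no longer passed and 33 changed sign. At d10 against d6, 2 genes were called, and 3 with d10 replicates 4 and 5 only or without a fold change limit. At d14 against d10, 1 gene was called, and 2 with the replicate block, with either part of the d10 tumors or without a fold change limit (1 to 2 with a tumor left out). At d14 against d6 it was 3, and 6 without a fold change limit (3 to 4 with a tumor left out). In treated d10 tumors it was 0, but 5 with DESeq2, 5 with the replicate block (which pairs d10 replicates 1 to 3 only), 5 against those replicates, 4 with all 5 groups in one fit and 1 with all genes of at least 1 count (0 to 3 with a tumor left out). In treated d14 tumors it was 2, and 5 without a fold change limit (2 to 4). Against d10 it was 0, and 2 against d10 replicates 4 and 5 or without a fold change limit. For the interaction it was 6, 7 with either part of the d10 tumors (*Clec9a* was not called against replicates 4 and 5, at 1.03 with an adjusted p of 0.061) and 9 without a fold change limit (3 to 9 with a tumor left out). Replicate numbers did not pair the samples (correlations of deviations from -0.31 to 0.16, never all 3 above 0.1).

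Signs changed only for values that were not called, and the cause was not tested. *Clec9a* from d6 to d10 was -0.00 with DESeq2, -0.01 with all groups or protein coding genes, -0.23 with d10 replicates 4 and 5 and -0.09 to 0.14 with a tumor left out. *Flt3* there was 0.04 with replicates 4 and 5 (-0.24 to 0.02 with a tumor left out), and *Cd209a* -0.50. From d10 to d14, replicates 4 and 5 gave 0.09 for *Cd209a* and 0.41 for *Ccl17*. From d6 to d14, *Xcr1* was 0.00 without TMM (-0.27 to 0.09 with a tumor left out) and *Zbtb46* -0.01 to 0.28 with a tumor left out. In treated d10 tumors *Irf8* was 0.10 with the replicate block and against replicates 1 to 3 (-0.09 to 0.08 with a tumor left out), and *Ccl17* 0.73 against replicates 4 and 5 (-0.53 to 0.15 with a tumor left out). In treated d14 tumors *Xcr1* was -0.27 to 0.13 with a tumor left out. Against d10, *Ccl17* was 0.05 without TMM and 0.82 with replicates 4 and 5 (-0.26 to 0.20 with a tumor left out), and its interaction was -0.28 with the latter.

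Calls over all genes moved most, as a ratio, in treated d10 tumors: 3 genes, against 223 with DESeq2, 1210 with the replicate block, 1152 against d10 replicates 1 to 3, 96 against replicates 4 and 5 and 0 to 115 with a tumor left out. They ranged from 810 to 2794 (main 1257) for d10 against d6, 281 to 2001 (1277) for d14 against d10, 1995 to 4333 (3270) for d14 against d6, 1172 to 2851 (2072) for treated d14 against d14, 588 to 2361 (1414) against d10, and 1315 to 3172 (2196) for the interaction. By Spearman's rho, none of the 3 genes most like *Irf8*, *Ccl17* and *Siglech* remained, and 1 of 3 for *Xcr1*, *Clec9a* and *Cd209a*. Depth limits *Cd209a* and *Ccl17* most.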
